A study of Mus musculus with 2 samples.

Results

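Voltage-gated sodium and calcium channel genes, HCN genes and potassium channel genes of every family were taken by gene name from a droplet-based single-cell RNA data set of the adult mouse hypothalamus. The members are names that begin with Kcn (without Kcnq1ot1 and the Kcnip genes), Cacna1, Cacna2d, Cacnb or Cacng, Hcn names with a number, and Scn names with a number and the letter a or b. They numbered 121 of the 26840 genes in the merged table of both libraries, and 120 of them were in the tables of both libraries. The remaining one, Kcnj13, was listed with 1 UMI, in a cell of the Irx5KO library with vascular and leptomeningeal markers, and 0 UMIs in WT. A UMI (unique molecular identifier) marks 1 captured transcript molecule, so levels here are UMIs of a gene per 1000000 UMIs of a cell class (CPM) and need no scaling by transcript length, since a molecule is counted once at its end. Over both libraries 71 members had at least 50 UMIs.

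The study profiled microdissected arcuate nucleus and median eminence, a region at the base of the hypothalamus, with Drop-seq of sorted live cells. The wildtype (WT) library came from 7 pooled CD-1 mice and the Irx5KO library from 6 pooled CD-1 mice of genotype Irx5-/-, all 7 to 8 weeks old. Irx5 encodes a homeobox transcription factor; the labels name the genotype alone, with no tissue-specific driver, and pooling leaves the animals of a library indistinguishable. With 1 library per genotype there was no replicate and no test between genotypes, and every interval given is a 95% interval for counting error only. The kept cells numbered 1851 in WT and 1949 in Irx5KO, with 3988117 and 4911202 UMIs and medians of 1621 and 1692 UMIs per cell. Irx5 itself had 13 UMIs in 11 WT cells, 5 of the UMIs in OPC-like, 5 in ependymal-like and 2 in neuron-like cells, and 0 UMIs in Irx5KO, where 0 of 1949 cells allows a share of up to 0.154%. The part of the gene that was deleted is unknown here, so these 3′ counts check the label only if it includes the counted end. Clusters were named from marker lists that hold no channel gene, with the channel genes left out of the genes used for clustering. Compared across the 12 classes, each marker set summed highest in the class named after it, in both libraries. Another set summed higher within 2 classes. In committed precursor (COP)-like cells oligodendrocyte markers were at 22177 and 49627 CPM, against 9872 and 12026 for COP markers. In Irx5KO epithelial-like cells pars tuberalis markers were at 3944 CPM, against 3644 for epithelial markers.

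Sodium channels carry the upstroke of the action potential, calcium channels turn depolarisation into calcium entry and transmitter release, and potassium channels set the resting potential and end the spike. Many pore-forming subunits work with accessory subunits (sodium beta, calcium alpha2-delta and beta, Kv beta) that set their trafficking and gating, while most Cacng genes encode TARPs, which are partners of AMPA-type glutamate receptors rather than of calcium channels. In glia the inward rectifiers and leak channels are known for holding the membrane near the potassium potential and for buffering potassium.

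Channel genes were not highest in neuron-like cells as a share of captured molecules. They took 0.270% of the UMIs of WT neuron-like cells (0.263% to 0.278%) and 0.273% of those of Irx5KO (0.267% to 0.278%). Oligodendrocyte precursor (OPC)-like cells had more, 0.358% in WT and 0.330% in Irx5KO. A single gene, Cacng4, made up 35.1% and 31.2% of those OPC-like UMIs, and without it the shares were 0.232% and 0.227%, below those of neuron-like cells. The share was 0.156% and 0.186% in pars tuberalis-like cells (the hormone-producing cells around the pituitary stalk), 0.153% and 0.156% in ependymal-like cells and 0.142% and 0.185% in tanycyte-like cells (ventricular glia of the median eminence). It was 0.111% and 0.129% in oligodendrocyte-like cells, and lowest in endothelial-like cells, at 0.0226% and 0.0261%. More members were detected in neurons: 110 of the members had a UMI in WT neuron-like cells and 116 in Irx5KO, against 73 and 55 in OPC-like cells and 71 and 74 in tanycyte-like cells. The classes held 629 and 895 neuron-like, 188 and 77 OPC-like and 295 and 437 tanycyte-like cells, and no comparison at matched cell numbers was made.

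**Figure D1:**
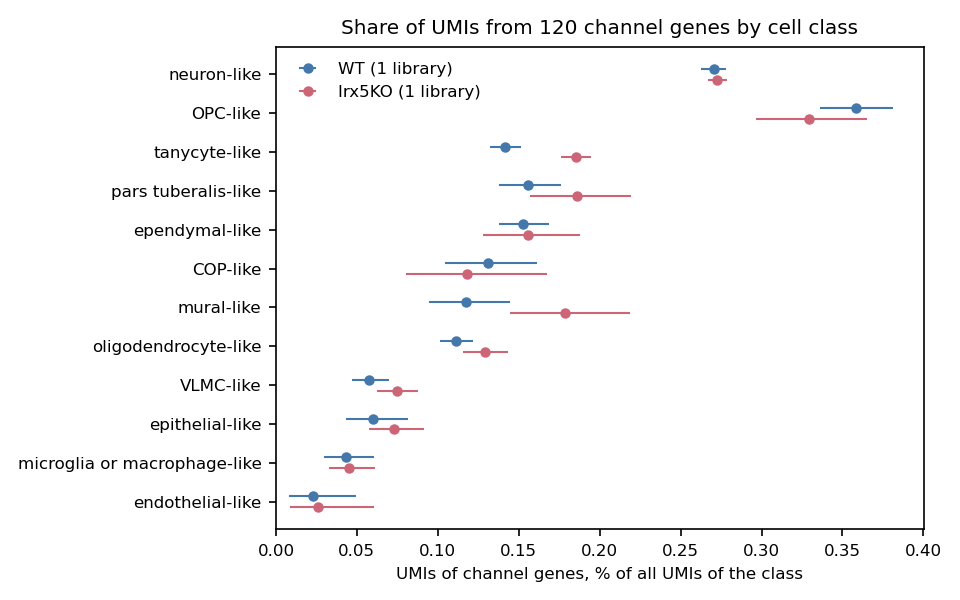
Share of UMIs from the 120 channel genes present in both tables (x axis, % of all UMIs of the class) in 12 cell classes (y axis), with 1 point per library and 95% Clopper-Pearson intervals for counting error. OPC-like and neuron-like cells sit highest, at 0.358% and 0.270% in WT, and endothelial-like cells lowest, at 0.0226%.

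By role, the 9 sodium pore genes gave 20.8% of all channel UMIs, the 35 voltage-gated potassium pore genes 18.9% and the 8 calcium accessory genes 15.3%. The 9 calcium pore genes gave 6.90%. The makeup differed by class. In neuron-like cells sodium pores (19.3% in WT and 19.7% in Irx5KO), voltage-gated potassium pores (20.3% and 20.9%) and calcium accessory genes (18.3% and 17.4%) had similar parts. In oligodendrocyte-like cells voltage-gated potassium pores (28.1% and 31.7%), inward rectifiers (24.8% and 26.2%) and HCN genes (16.0% and 9.59%) led, while sodium pores gave 2.81% and 2.33%. In tanycyte-like cells sodium pores alone gave 46.8% and 52.4%, most of it Scn7a (40.0% and 47.8%).

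Among the sodium pores, Scn2a, Scn3a and Scn9a were the leading neuronal genes. Scn2a, which encodes a main sodium channel of excitatory axons, stood at 176 CPM (158 to 197) in WT neuron-like cells and 166 CPM (152 to 181) in Irx5KO. Scn3a was at 122 and 126 CPM and Scn9a, best known from sensory neurons, at 118 and 145 CPM. The intervals of Scn3a and Scn9a overlapped in both libraries, so their order could not be told. Scn1a followed at 63.4 and 56.9 CPM and Scn8a at 29.8 and 27.0 CPM. Scn2a was seen with 28 UMIs in WT OPC-like cells, 103 CPM (68.3 to 149), but with 1 UMI in Irx5KO, 9.18 CPM (0.232 to 51.1). Scn3a was present in that class in both libraries, at 106 and 128 CPM. A Scn2a UMI was found in 15.6% (WT) and 15.3% (Irx5KO) of neuron-like cells once each cell was thinned to 1000 UMIs, against 0.8% and 1.17% of tanycyte-like cells. Before thinning the neuron-like shares were 33.5% and 34.7%, at median depths of 2126 and 2414 UMIs, with tanycyte-like cells at 1740 and 1548 UMIs. The accessory gene Scn2b, a beta subunit that tethers the channel at the membrane, was at 75.0 and 94.5 CPM in neuron-like cells, and Scn3b at 50.2 and 37.4 CPM.

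Scn7a was the leading channel gene of tanycyte-like cells. It encodes Nax, an atypical sodium channel known as a sensor of extracellular sodium in glia of the circumventricular organs. It lies on mouse chromosome 2 in mm10, from 66673425 to 66784914 on the minus strand, in the same cluster of genes as Scn3a (65457118 to 65567627), Scn2a (65620771 to 65767447), Scn1a (66270778 to 66440840) and Scn9a (66480080 to 66634962). Tanycyte-like cells had 332 Scn7a UMIs in WT, 567 CPM (508 to 631), and 733 in Irx5KO, 885 CPM (822 to 951). The next class was ependymal-like in WT, at 39.8 CPM, and VLMC-like (vascular and leptomeningeal cells) in Irx5KO, at 157 CPM (105 to 225) against 35.2 CPM (12.9 to 76.7) in WT. Neuron-like cells were at 6.07 and 11.0 CPM. Its 4 neighbours on chromosome 2 were highest in other classes. Scn2a, Scn3a and Scn1a were highest in neuron-like or OPC-like cells. Scn9a was highest in neuron-like cells, at 118 and 145 CPM, and had 0 UMIs in OPC-like cells of both libraries. Tanycyte-like cells were the next class for Scn9a, at 52.9 and 41.0 CPM.

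Within the tanycyte-like class Scn7a marked 1 of 2 clusters. The smaller cluster (76 WT and 103 Irx5KO cells), led by Scn7a, Cldn10, Cyr61 and Col23a1, had 323 of the 332 WT UMIs and 715 of the 733 Irx5KO UMIs, or 1555 CPM (1390 to 1734) and 2701 CPM (2506 to 2906). The larger one (219 and 334 cells), led by Cyr61, Mlc1 and Slc1a3, had 23.8 and 31.9 CPM. After thinning to 1000 UMIs, 69.6% of WT (57.3% to 80.1%) and 87.5% of Irx5KO cells (78.7% to 93.6%) of the smaller cluster had a Scn7a UMI. In the larger cluster these shares were 1.66% and 1.19%, and in neuron-like cells 1.17% and 0.654%. Unthinned shares were 88.2% and 89.3% in the smaller cluster and 3.65% and 2.10% in the larger. The alpha2-delta gene Cacna2d2, an accessory subunit that brings calcium channels to the surface, also divided the clusters, with 212 and 242 CPM in the smaller and 26.5 and 30.2 CPM in the larger. Kcne1l, a small accessory gene of voltage-gated potassium channels, and Kcnj10 had the opposite division. Kcne1l had 0 UMIs in WT and 15.1 CPM in Irx5KO in the smaller cluster, against 76.7 and 105 CPM in the larger, and Kcnj10 had 14.4 and 22.7 CPM against 66.2 and 128 CPM. No cluster was named astrocyte, and the astrocyte markers summed higher in the larger cluster in both libraries. The part of astrocyte transcripts in this division was not tested.

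The RefSeq promoter windows of 2 glial members, Scn7a and Hcn2 (build GRCm38.p6, 250 bases before to 50 after the start), differ in CG content. CG dinucleotides are in capitals; the Scn7a window on the minus strand (chr2:66784861-66785160) holds 3 and the Hcn2 window on the plus strand (chr10:79716384-79716683) holds 26.
Scn7a: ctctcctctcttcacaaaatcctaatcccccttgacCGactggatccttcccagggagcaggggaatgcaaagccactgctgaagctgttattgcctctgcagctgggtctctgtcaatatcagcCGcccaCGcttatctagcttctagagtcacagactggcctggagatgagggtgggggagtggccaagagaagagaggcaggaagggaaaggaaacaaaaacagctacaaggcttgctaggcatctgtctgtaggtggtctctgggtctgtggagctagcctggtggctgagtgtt
Hcn2: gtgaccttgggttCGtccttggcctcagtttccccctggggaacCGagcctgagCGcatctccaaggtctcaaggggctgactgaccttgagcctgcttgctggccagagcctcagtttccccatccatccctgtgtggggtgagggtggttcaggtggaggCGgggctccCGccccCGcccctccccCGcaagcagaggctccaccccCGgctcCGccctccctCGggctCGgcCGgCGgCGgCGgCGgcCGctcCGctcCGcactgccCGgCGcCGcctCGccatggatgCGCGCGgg
The median over the 116 windows that matched 87 members was 10 CG dinucleotides and 61% G or C, against 7 and 52.7% over all 32851 windows. The motif ACANNTGT, a palindromic core reported for Irx proteins and searched on both strands, was in 2 windows of members, Kcnk5 and Kcnmb1, or 1.72% of member windows, against 7.38% of all windows. The Kcnmb1 window on the plus strand (chr11:33962763-33963062) is shown with the match in capitals, since Kcnmb1 was among the leading channel genes of mural-like cells.
Kcnmb1: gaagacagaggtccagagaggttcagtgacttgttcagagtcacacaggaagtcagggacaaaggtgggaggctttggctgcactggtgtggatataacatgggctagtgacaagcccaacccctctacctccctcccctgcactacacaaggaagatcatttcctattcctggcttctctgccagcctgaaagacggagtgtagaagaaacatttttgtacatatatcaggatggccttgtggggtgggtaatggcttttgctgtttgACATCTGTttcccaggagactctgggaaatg
The Scn7a and Hcn2 windows hold no match to these letters, and a match is a description of the sequence only.

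Among the calcium pores, Cacna1a (P/Q-type) and Cacna1e (R-type) had the most UMIs. In neuron-like cells Cacna1e was at 50.7 and 48.1 CPM, Cacna1b (N-type) at 40.8 and 53.6 CPM and Cacna1a at 53.5 and 30.5 CPM. Cacna1s, which encodes the L-type pore of skeletal muscle, was the leading channel gene of WT ependymal-like cells. It had 51 UMIs in 28 of 138 cells there, 203 CPM (151 to 267), but 2 UMIs in 1 of 43 cells of Irx5KO, 28.6 CPM (3.47 to 103), and 0.551 and 1.95 CPM in neuron-like cells. The intervals of the 2 libraries in ependymal-like cells did not overlap, although a class with 43 cells was below the 50 cells set for ratios. The WT level ran up to 318 CPM when cells and values of the merged table were used.

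Accessory calcium channel genes gave more UMIs than the pores. Cacna2d1, the alpha2-delta subunit that binds gabapentin, was at 121 CPM (106 to 138) in WT neuron-like cells and 149 CPM (136 to 163) in Irx5KO, at 102 and 144 CPM in pars tuberalis-like cells and at 174 and 114 CPM in mural-like cells. Cacna2d2 was at 140 and 110 CPM in neuron-like cells. Cacnb4, a cytoplasmic beta subunit, was at 72.2 and 67.9 CPM in neuron-like and at 88.9 and 157 CPM in oligodendrocyte-like cells. Cacna2d1 was therefore not confined to neuron-like cells, with similar levels in pars tuberalis-like and mural-like cells. Cacnb4 was highest in oligodendrocyte-like cells in both libraries. Its next classes were small, COP-like cells in WT and mural-like cells in Irx5KO, both at 76.05 CPM.

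The TARP genes had their highest levels in different classes. Cacng4 was at 1259 CPM (1129 to 1400) in WT OPC-like cells and 1028 CPM (846 to 1237) in Irx5KO, followed by 274 and 76.1 CPM in the committed precursors (COP-like, 20 and 15 cells) and 9.61 and 3.75 CPM in oligodendrocyte-like cells. After thinning, 65.4% of WT and 62.5% of Irx5KO OPC-like cells had a Cacng4 UMI (71.8% and 67.5% before), against 0% and 1% of oligodendrocyte-like cells, where 0 of 165 WT cells allows a share of up to 1.82%. The level was thus highest in precursors and lowest in the mature class of the same lineage, in both libraries. Cacng4 was not confined to this lineage. It also made up 2.86% (WT) and 2.57% (Irx5KO) of the channel UMIs of neuron-like cells, and 4.46% and 2.67% of those of tanycyte-like cells. Cacng2 (stargazin), the founding TARP, was highest in neuron-like cells, at 86.6 and 64.3 CPM. Cacng3 was at 12.7 and 11.4 CPM there and had 0 UMIs in the other classes, where a count of 0 allows up to 17.6 CPM in WT VLMC-like cells and more in the smaller classes. Cacng7 was at 99.1 and 82.6 CPM in OPC-like and 41.4 and 28.9 CPM in neuron-like cells.

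HCN genes encode the pacemaker channels opened by hyperpolarisation. Hcn2 was highest in oligodendrocyte-like cells, with 73 UMIs in WT, 175 CPM (137 to 220), and 33 in Irx5KO, 124 CPM (85.2 to 174), against 7.72 and 9.75 CPM in neuron-like cells. In 15.2% of WT and 12% of Irx5KO oligodendrocyte-like cells thinned to 1000 UMIs a Hcn2 UMI was found, against 0.4% and 0% of tanycyte-like cells, where 0 of 341 allows up to 0.880%. Before thinning these shares were 25.1% and 23.3%, and 0.339% and 0%.

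Of the voltage-gated potassium pores, Kcnc1 had the most UMIs. Kcnc1, a fast-spiking type, was at 120 and 123 CPM in neuron-like cells. Kcna1, a low-threshold type of juxtaparanodal axons, was at 142 CPM (108 to 183) and 232 CPM (178 to 298) in oligodendrocyte-like cells and at 2.76 and 3.57 CPM in neuron-like cells. Kcna6 was also higher in oligodendrocyte-like cells, at 79.3 and 82.5 CPM against 24.3 and 25.7 CPM. These genes of the same subfamily neighbour each other on chromosome 6 (Kcna1 from 126640397 to 126646384, Kcna6 from 126708329 to 126740674). Kcnd2, an A-type pore, was at 128 and 165 CPM in OPC-like and 37.5 and 51.7 CPM in neuron-like cells, and Kcnf1, an electrically silent subunit, at 11.0 CPM in neuron-like cells of both libraries and 0 or 1.21 CPM in the next class. Kcnab1, a Kv beta subunit, was among the 3 leading members of mural-like cells, with 147 and 133 CPM, on 11 and 7 UMIs. Kcnmb1, the beta subunit of the BK channel known from smooth muscle, was at 93.6 and 190 CPM there.

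Of the inward rectifiers, Kcnj10 and Kcnj16 were highest in glial classes and Kcnj9 in neurons. Neuron-like cells held 258 of the 672 inward rectifier UMIs in WT and 470 of 771 in Irx5KO. Kcnj10 encodes the main potassium-buffering channel of glia and was at 247 CPM (202 to 300) and 311 CPM (248 to 386) in oligodendrocyte-like cells, 187 and 220 CPM in OPC-like cells and 167 and 243 CPM in ependymal-like cells. The last of these values was 416 CPM with called doublets removed in both libraries. Kcnj10 was near the floor in neuron-like cells, with 5 and 1 UMIs. Kcnj16, its heteromeric partner, was found in OPC-like (235 and 119 CPM) and ependymal-like cells (163 and 114 CPM), but with 1 UMI in oligodendrocyte-like cells of each library. Oligodendrocyte-like cells thus had Kcnj10 with Kcnj16 at 1 UMI, whereas their precursors had both. The G-protein-gated Kcnj9 was neuronal, at 83.8 and 81.5 CPM.

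Tandem-pore genes encode leak channels. Kcnk3, an acid-sensitive background channel, was at 372 CPM (285 to 477) in WT pars tuberalis-like cells and 472 CPM (330 to 653) in Irx5KO, against 29.2 and 21.4 CPM in neuron-like cells. The next class was mural-like (58 and 40 cells), at 66.8 and 76.05 CPM. The excess over it was 5.56-fold and 6.20-fold, with no interval computed for these folds. After thinning, 25% and 36.1% of pars tuberalis-like cells had a Kcnk3 UMI (40.9% and 45.7% before), against 0.8% and 0% of tanycyte-like cells. Kcnk1 led in epithelial-like cells at 234 and 319 CPM. Kcnk2, a mechanosensitive leak channel, was at 75.0 and 94.9 CPM in neuron-like, 51.4 and 110 CPM in OPC-like and 41.1 and 103 CPM in VLMC-like cells, and Kcnk13 at 79.3 and 52.5 CPM in oligodendrocyte-like cells. The BK pore gene Kcnma1 (42.5 and 41.6 CPM) and the sodium-activated Kcnt1 (35.3 and 35.1 CPM) had nearly equal neuronal levels in both libraries.

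**Figure D2:**
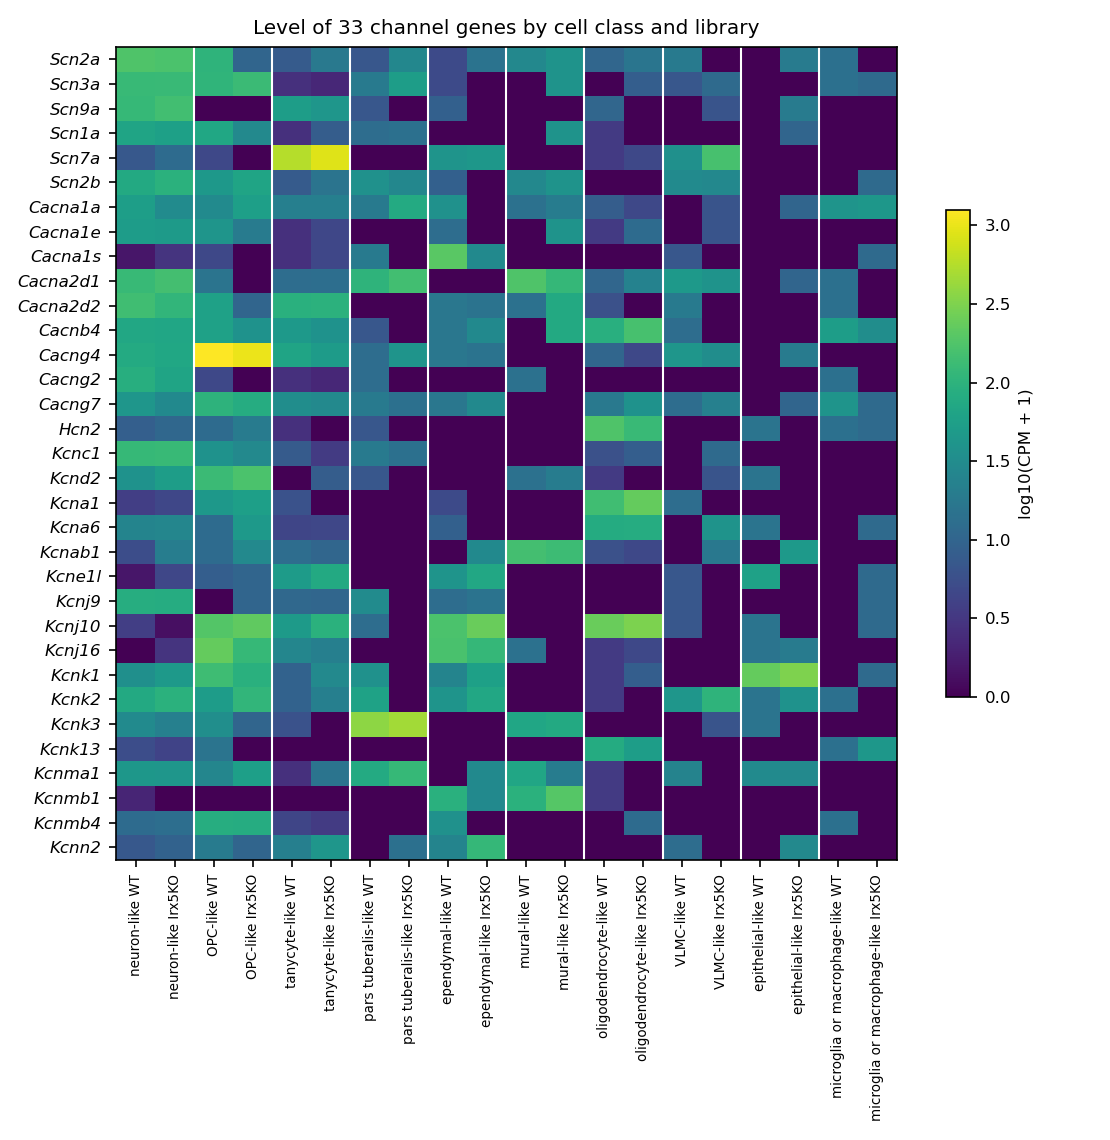
Level of 33 channel genes (rows) in 10 cell classes of each library (columns, WT left and Irx5KO right), as log10 of CPM plus 1. Bright cells mark Scn7a in tanycyte-like (567 and 885 CPM), Cacng4 in OPC-like (1259 and 1028 CPM) and Kcnk3 in pars tuberalis-like cells (372 and 472 CPM).

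Of the 71 members with at least 50 UMIs, 45 had the same highest class in both libraries, 15 of them in neuron-like, 7 in OPC-like, 6 in oligodendrocyte-like and 5 in ependymal-like cells. A level at least 5-fold over the next class in both libraries was found for 6 of the 71 (2.88% of the 14391 genes with as many UMIs met the rule), namely Scn7a (tanycyte-like), Kcnk3 (pars tuberalis-like), Hcn2 (oligodendrocyte-like), Cacng2, Cacng3 and Kcnf1 (neuron-like). The rule was applied to observed levels, with no allowance for counts of 0. In endothelial-like cells such a count allows up to 113 CPM (WT) and 156 CPM (Irx5KO), above the highest levels of Cacng2, Cacng3 and Kcnf1 in both libraries and of Hcn2 in Irx5KO, so an excess over that class is not shown for them. Kcnk3 (372 and 472 CPM) and, in WT, Hcn2 (175 CPM) were above these bounds by less than 5-fold. A 5-fold excess over that class is therefore not shown for them. By the same bound, no excess is shown for Cacng3 and Kcnf1 over COP-like, mural-like or VLMC-like cells of either library. This also holds for epithelial-like, pars tuberalis-like and microglia or macrophage-like cells. Nor is an excess shown for Cacng2 over COP-like cells of Irx5KO. Across the 58 members measured in neuron-like cells, the 2 libraries' log2 CPM had a Pearson's r of 0.917 and a Spearman's rho of 0.922. This is a description over genes, which are not independent and share each library's cells and depth.

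Neuron-like cells were clustered again into 12 clusters, of which 4 could be named from markers: Agrp (13 WT and 42 Irx5KO cells), Kndy (kisspeptin, neurokinin B and dynorphin, 16 and 45), SCN (suprachiasmatic, 97 and 68) and Foxb1 mammillary (59 and 35). Agrp and Kndy neurons are arcuate types, whereas the latter pair are known from neighbouring nuclei. The genes described across these clusters were chosen after their values were seen. The Foxb1 cluster had the highest channel share in WT, 0.519% (0.480% to 0.560%), followed by an unnamed cluster led by Grp and Nr2f2, with 0.389%. In Irx5KO these clusters, at 0.382% (0.348% to 0.419%) and 0.381% (0.362% to 0.401%), could not be ordered. The other 10 clusters lay between 0.193% and 0.300% in WT and between 0.213% and 0.321% in Irx5KO.

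In the Foxb1 cluster Cacna2d1 was at 423 CPM (317 to 553) and 408 CPM (301 to 540), Kcnj9 at 215 and 238 CPM and Kcna2, a dendrotoxin-sensitive Kv pore, at 152 and 170 CPM. Scn2a was at 487 CPM (372 to 625) there in WT and at 221 CPM (144 to 324) in Irx5KO, intervals that did not overlap, while Scn1a was at 168 and 178 CPM. The Grp and Nr2f2 cluster had Scn2a at 298 and 305 CPM.

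Kcnk2 differed widely between the named neuron types. It was at 297 CPM (166 to 490) and 425 CPM (327 to 544) in Kndy cells and 213 CPM (128 to 332) and 248 CPM (187 to 323) in Agrp cells. SCN cells had 1 UMI in each library, 4.39 CPM (0.111 to 24.4) and 5.42 CPM (0.137 to 30.2), and Foxb1 cells had 2 and 0 UMIs. Kndy and Agrp neurons were thus high and SCN and Foxb1 neurons low in both libraries, with no overlap of the intervals. Scn9a was at 168 CPM (93.9 to 277) and 316 CPM (246 to 399) in Agrp cells, where Scn1a had 1 UMI in each library. SCN cells had Cacna2d2 at 43.9 and 21.7 CPM. Kcnc2, a fast Kv pore, was at 39.5 CPM (18.1 to 74.9) and 119 CPM (74.7 to 181) in SCN cells.

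**Figure D3:**
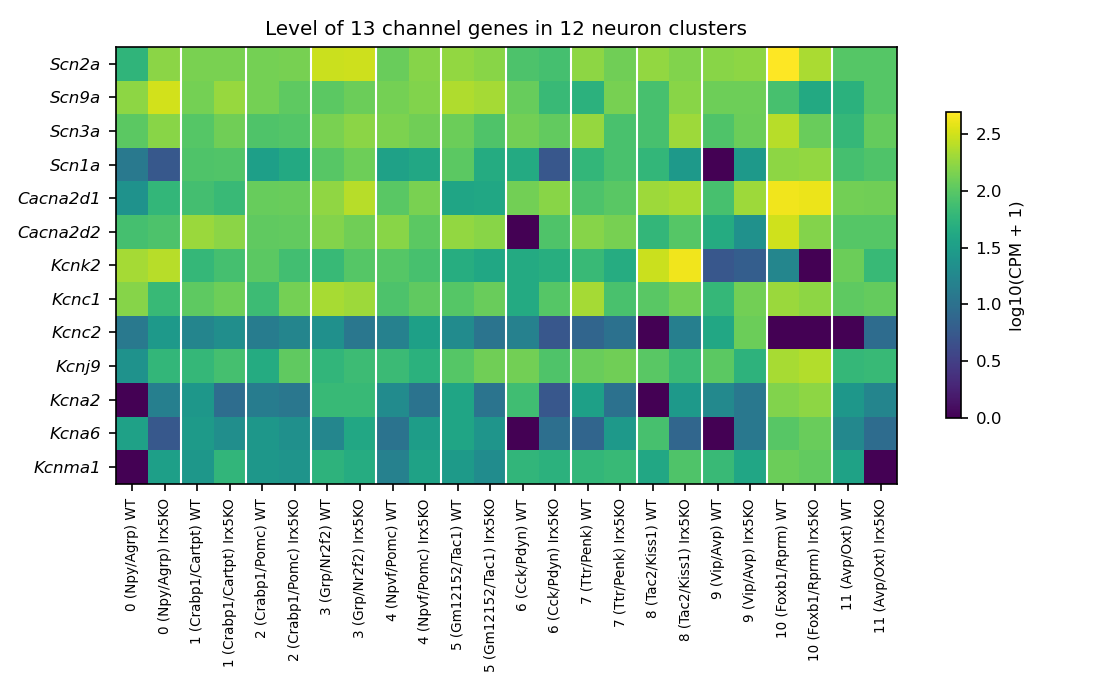
Level of 13 channel genes (rows) in 12 neuron clusters of each library (columns, with the 2 leading genes of each cluster), as log10 of CPM plus 1. Kcnk2 is bright in the Tac2/Kiss1 cluster (297 and 425 CPM) and dark in the Vip/Avp cluster (4.39 and 5.42 CPM), and Cacna2d1 is brightest in the Foxb1/Rprm cluster.

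Between genotypes, the channel genes of neuron-like cells differed little as a group. Their share of UMIs was 1.01 times as high in Irx5KO as in WT (0.973 to 1.04), and the median log2 ratio over the 58 members with at least 50 UMIs was -0.03, against 0.07 over all 10909 genes measured. Of the 58, 4 (6.90%) were at least 1.5-fold higher in Irx5KO, where 12.4% of all genes measured were, and 6 (10.3%) at least 1.5-fold lower, where 6.47% of all genes were. The neuron-like cluster with the most WT cells was led by Avp and Scg2 (223 WT and 297 Irx5KO cells), and the one with the most Irx5KO cells by Sst and Cartpt (138 and 306). The part of these cluster sizes in the ratios was examined only by weighting the neuron clusters alike.

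Kcnab1 had the largest ratio. Neuron-like cells held 8 Kcnab1 UMIs (8 cells) in WT and 60 (46 cells) in Irx5KO, that is 4.41 CPM (1.90 to 8.69) and 19.5 CPM (14.9 to 25.1), a 4.42-fold higher level (2.10 to 10.7). The Irx5KO UMIs lay mainly in 3 unnamed clusters, led by Crabp1 and Pomc (15 UMIs against 0 in WT), by Grp and Nr2f2 (14 against 1) and by Npvf and Pomc (24 against 2). These counts are not levels, since all 3 clusters were larger in Irx5KO. In that order they held 121, 118 and 137 Irx5KO cells (378178, 380373 and 731259 UMIs in all). In WT they held 50, 78 and 47 cells (158528, 187977 and 210987 UMIs). Kcnab1 overlaps A330015K06Rik on the other strand, and strand use in the authors' counting was not given in the sources used here, so reads of both cannot be told apart. Kcna5, a Kv pore known from heart, was next, with 12 and 49 UMIs (6.62 and 15.9 CPM, 2.41-fold, 1.26 to 4.97). Kcnc2 was 1.56-fold higher (0.996 to 2.5).

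Cacna1a was the lower member with the bound furthest from no difference. Its 97 WT and 94 Irx5KO UMIs stood at 53.5 CPM (43.4 to 65.3) and 30.5 CPM (24.7 to 37.4), or 0.571 times the WT level (0.425 to 0.766). In the Grp and Nr2f2 cluster it was at 133 CPM (86.1 to 196) in WT and 44.7 CPM (26.0 to 71.6) in Irx5KO. Cacnb3, a beta subunit, was at 0.638 times the WT level (0.479 to 0.849) and Cacna1g, a T-type pore, at 0.601 times (0.397 to 0.910). Kcna2, Kcnh8 (an ether-a-go-go-like pore) and Kcnc4 were at 0.643, 0.630 and 0.638 times. The bounds of these genes lay nearer to no difference, that of Kcnc4 nearest. Kcnc4 was at 13.2 and 8.45 CPM, and had 28 UMIs in each library over all cells. With neuron clusters weighted alike the log2 ratios of Cacna1g, Cacnb3, Kcna2, Kcnh8 and Kcnc4 were -0.39, -0.42, -0.38, -0.30 and -0.02, all short of 1.5-fold. Cacna1a (-1.0 to -0.65), Kcnab1 (1.77 to 2.14) and Kcna5 (0.80 to 1.87) stayed past 1.5-fold under every alternative run for them.

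Among the abundant neuronal channel genes, Scn2a, Scn3a, Kcnc1 and Kcnj9 were near 1. The ratio was 0.939 (0.815 to 1.08) for Scn2a, 1.03 (0.875 to 1.23) for Scn3a, 1.03 (0.869 to 1.22) for Kcnc1 and 0.973 (0.792 to 1.20) for Kcnj9. All 4 intervals lay within 1.5-fold of 1 in either direction. Other abundant genes differed more in level between WT and Irx5KO neuron-like cells. Scn9a (118 and 145 CPM) and Scn2b (75.0 and 94.5 CPM) were higher in Irx5KO, and Cacng2 (86.6 and 64.3 CPM) was lower. The alpha2-delta genes lay on either side of 1, with 1.23 (1.04 to 1.45) for Cacna2d1 and 0.786 (0.666 to 0.929) for Cacna2d2.

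In tanycyte-like cells the channel share was 1.31 times as high in Irx5KO (1.20 to 1.43), and 1.14 times (1.02 to 1.28) without Scn7a. Of 7 members measured 3 were at least 1.5-fold higher, where 10.6% of the 5635 genes measured were, and 0 were lower, where 8.34% of genes were. Scn7a was 1.56-fold higher (1.37 to 1.78) in the class and 1.74-fold (1.52 to 1.99) in its own cluster. As a mean over cells the log2 ratio in the class was 0.45, under 1.5-fold, and in its own cluster it was 0.67 to 0.82 under every alternative run. Kcnj10 had 28 and 78 UMIs (1.97-fold, 1.26 to 3.15) and Kcne1l 29 and 63 (1.54-fold, 0.975 to 2.47). All 10 astrocyte markers had UMIs in this class, with a sum of 1525 CPM in WT and 3162 CPM in Irx5KO, and in the Scn7a-led cluster 1107 CPM (Ntsr2 and Gfap at 0) and 1696 CPM. In the larger cluster it was 1754 and 3851 CPM, beside 2551 and 3127 CPM for the 10 tanycyte markers. The part of these astrocyte transcripts in the results for Kcnj10 and Scn7a was not tested. The log2 ratio of Kcnj10, 0.98 as reported, ran from 0.52 to 1.77 under the alternatives. Its lowest value was with at least 200 genes per cell, which set apart 12 WT and 47 Irx5KO astrocyte-like cells. The highest was with at least 800 genes, which set apart more of them, 101 in WT and 129 in Irx5KO. For Scn7a the log2 ratio was 0.66 with at least 200 genes in place of 0.64. The log2 ratio of Kcne1l was 0.26 with at least 800 genes.

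In oligodendrocyte-like cells 2 of 5 measured members, Kcna1 and Cacnb4, were at least 1.5-fold higher, where 9.39% of genes measured were, and 0 were lower, where 10.8% were. Kcna1 had 59 and 62 UMIs (1.64-fold, 1.13 to 2.38) and Cacnb4 37 and 42 (1.77-fold, 1.11 to 2.83). Kcnj10 was at 1.26 times (0.931 to 1.70) and Hcn2 at 0.706 times (0.453 to 1.08) the WT level. In OPC-like cells 0 of 4 measured members were higher, where 7.58% of genes were, and 1 was lower, where 14.7% were. That member was Kcnj16, with 64 UMIs in 44 WT cells and 13 in 9 Irx5KO cells, 0.508 times the WT level (0.257 to 0.931). Cacng4, with 343 and 112 UMIs, was at 0.816 times (0.654 to 1.01). No member reached 50 UMIs in VLMC-like or in microglia or macrophage-like cells, and no member was 1.5-fold apart in opposite directions in different classes.

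**Figure D4:**
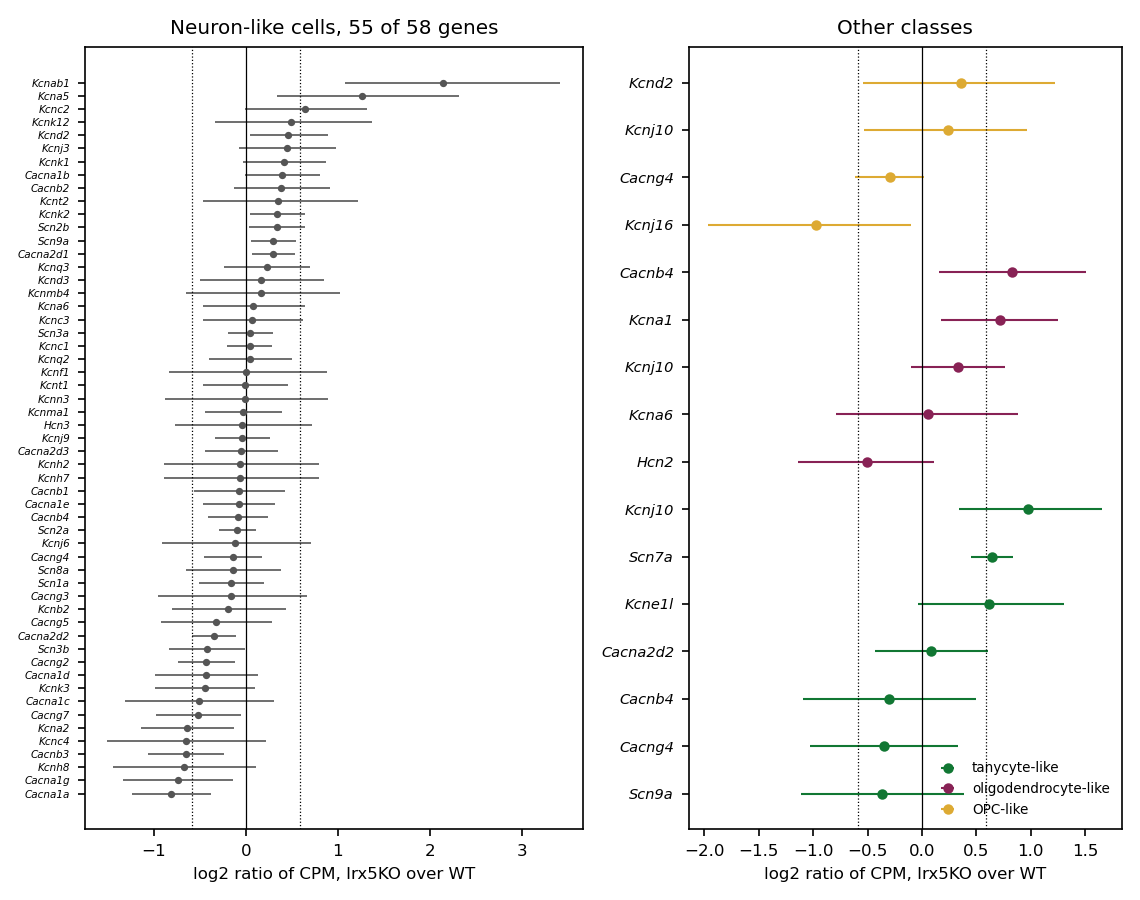
Log2 ratio of CPM, Irx5KO over WT (x axis), of measured members (y axis) in neuron-like cells (left, 55 of the 58 genes) and in tanycyte-like, oligodendrocyte-like and OPC-like cells (right), with 95% intervals for counting error and dotted lines at 1.5-fold. Kcnab1 (2.14) and Kcna5 (1.27) stand to the right and Cacna1a (-0.81) to the left in neuron-like cells.

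A list of 36 partner genes held auxiliary subunits, binding proteins and the sodium pump. Of these 34 were in both tables and 26 were measured in neuron-like cells. Among the 26, 2 were at least 1.5-fold higher, where 12.4% of all genes were, namely Kcnip2 (1.83-fold, 1.26 to 2.70), which modulates A-type channels, and Dpp10 (1.52-fold, 1.17 to 2.0), an A-type auxiliary subunit. Another 2 were lower, where 6.47% of all genes were, namely Gem (0.614 times, 0.459 to 0.822) and Rrad (0.618 times, 0.466 to 0.820), both small GTP-binding proteins that inhibit calcium channels. The median log2 ratio of the 26 was 0.08, near the 0.07 of all genes. The sodium pump subunit Atp1b1 had the most UMIs, at 2242 and 2809 CPM, well above any channel gene in neuron-like cells.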

How the data were processed

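Drop-seq libraries of pooled WT and pooled Irx5KO arcuate nucleus and median eminence were compared, 1 library each, so no test between genotypes was possible. For WT the authors deposited raw UMI counts; the authors' Irx5KO and merged tables hold natural log values of 1 plus a count scaled to a barcode total of 10000 (read from the values). Whole counts were recovered from these values within 1e-06, and 0 of 4275938 WT UMIs compared with the merged table differed. The design had assumed counts for both. Tools named in the submitters' processing notes are STAR 2.6.0b, Seurat 3, Picard and bcl2fastq, on build mm10, with roles not given in the sources used here.

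Kept cells had 500 genes or more and mitochondrial UMIs of 20% or less (587 to 17968 UMIs per cell in WT, 587 to 14342 in Irx5KO). Doublet calls of 23 of 1972 Irx5KO cells (1.17%) were removed, while 9 of 1851 in WT (0.486%) fell under the 0.5% set for use. The libraries shared 1 barcode, and 0 were kept in both. Cells were clustered with scanpy 1.11.5 (2000 variable genes without the channel genes, 30 components, 15 neighbours, Leiden resolution 1). Rebuilt class names can differ from the study's. A set of at least 3 markers 2-fold up, with most markers among the 10 leading genes, named a cluster.

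UMIs were summed per class and library over all genes (25618 genes shared). CPM has exact Poisson intervals, ratios have conditional binomial intervals and shares have Clopper-Pearson intervals, all 95% and for counting error only. Ratios were read for classes with at least 50 cells per library and genes with at least 50 UMIs over both. The ratio step was tested on simulated data. For shares of cells, 387 WT and 405 Irx5KO cells under 1000 UMIs were left out. Named members were the 3 with most UMIs per class and library, the 2 with most UMIs per role, those at least 5-fold over the next class, and those at least 1.5-fold apart between genotypes with at most 20% of UMIs in 1 cell, and the partner genes likewise. Other members named were chosen after their values were seen. Members, lists and markers were chosen with earlier results of these data known. Alternatives changed the cell filter, doublet removal, resolution, scaling (edgeR 4.0.16 TMM, median of ratios), the UMI minimum and the weighting of cells and clusters. Positions are from GENCODE M21 on mm10. At their transcript ends Kcnj14, Kcnk6 and Kcnmb4 held at least 50 bases that matched another gene at 98% or more (BLAST 2.17.0), and 11 members overlap a gene on the same strand and 38 one on the other, so their counts are uncertain. In the WT table Cacng1, Kcna10, Kcne2, Kcnj15 (1 UMI each) and Kcnq1 (2) are listed but not in the merged table, and were not used. Some withheld genes are counted in the totals but not reported here.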

Additional observations from a re-analysis of the deposited data

Results flagged for a closer look

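Barcodes left out by the cell filter also held channel transcripts. In WT 949 barcodes with a median of 435 UMIs gave a channel share of 0.251% (0.237% to 0.267%), and in Irx5KO 401 barcodes, including the 23 called doublets, with a median of 543 UMIs gave 0.248% (0.230% to 0.267%). The leading member was Cacng4 in both, with 75 and 43 UMIs. These barcodes enter no comparison.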

How the results depend on the processing

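No paired analysis was possible because each genotype has 1 library, and no replicate could be left out. Of the group results, 241 values under alternatives stayed close to those reported, 30 moved and no called ratio changed direction. The neuron-like share moved to 0.289% (WT) with at least 200 genes per cell, to 0.259% (WT) and 0.266% (Irx5KO) with at least 800, and to 0.290% and 0.309% at resolution 2. With at least 800 genes the oligodendrocyte-like WT share was 0.0973% and the tanycyte-like shares were 0.160% and 0.232%. The neuronal median log2 ratio, -0.03 as reported, was -0.097 with at least 200 genes and on the other side of 0 at resolution 2 (0.051), with clusters weighted alike (0.017), at least 20 UMIs (0.00237) or, nearer 0, 800 genes. Members at least 1.5-fold higher numbered 2 (at least 100 UMIs) and 9 (at least 20) in neuron-like cells, 7 (at least 20) and 1 (800 genes, or no doublets removed) in tanycyte-like, 1 in oligodendrocyte-like (at least 100 UMIs, or mean over cells) and 1 in OPC-like cells (at least 20, or mean over cells). Lower members numbered 3 in neuron-like cells (at least 100 UMIs, 800 genes, resolution 2, or channel genes among the variable genes), 2 with neuron clusters weighted alike, 0 and 4 in OPC-like cells (at least 100 and 20 UMIs), 1 in oligodendrocyte-like (TMM, median of ratios, or at least 20 UMIs) and 1 in tanycyte-like cells (at least 20). A higher or lower UMI minimum tests fewer or more members. For the others the cause was not tested. Of 766 values for single members, 38 moved. Pars tuberalis, mural, epithelial and ependymal levels rest on few UMIs.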
